A study of Mus musculus with 2 samples.

Results

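The genes described here encode molecular chaperones, proteins that help other proteins to fold, to refold after damage and to pass through membranes. They were compared between mouse neural stem cells transfected with an siRNA against Chd4 (siChd4, 1 library, labelled as a Chd4 knockdown) and the same kind of cells transfected with a scrambled siRNA (siSCR, 1 library, labelled as control). The members were chosen by gene symbol alone: the Hspa, Hspb, Hspd, Hspe, Hsph and Hsp90 genes, the Dnaja, Dnajb and Dnajc genes, the Cct genes, and Tcp1, Calr, Canx and Hyou1. Of the 17359 genes in the deposited table, 82 matched. They were sorted by hand, with earlier results of these data known, by the place where their proteins work. Of the 82, 37 were placed in the cytosol and nucleus, and 10 in the CCT chaperonin or closely related to its subunits. Another 15 were placed in the endoplasmic reticulum (ER), 10 in mitochondria, and 10 in other, mixed or less certain places.

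HSP70 proteins bind short greasy stretches of unfolded proteins and let go of them in a cycle driven by ATP. J-domain proteins (the DNAJ families) bring clients and set off ATP hydrolysis, and HSP110 proteins exchange the nucleotide. HSP90 acts later on signalling proteins and kinases, small heat shock proteins hold unfolded clients without ATP, and the chaperonins CCT (cytosol) and HSP60 with HSP10 (mitochondria) enclose a client in a chamber. In neural cells CCT is known for folding actin and tubulin. The ER set folds secreted and membrane proteins, including adhesion molecules and receptors.

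The siChd4 library held 20072209 estimated counts and the siSCR library 19817038. Chd4, the chromatin remodelling ATPase that the siRNA targets, was at 203 TPM in siChd4 against 249.5 TPM in siSCR (0.815-fold, 0.795 to 0.836). That difference is short of the 1.5-fold limit used below. Of all genes with a mean of at least 1 TPM, 19.4% had a ratio as low or lower. TPM is a transcript level corrected for length and scaled to the same total in each library. The labels state neither where the cells came from, nor the siRNA dose, nor when the cells were harvested. The neural stem cell markers Fabp7, Vim, Slc1a3, Nes, Sox2 and Pax6 were all detected and summed to 13468 TPM in siChd4 against 11361 TPM in siSCR. They did not go one way: Vim (1.45-fold), Fabp7 (1.15-fold), Nes and Sox2 were higher in siChd4, and Slc1a3 (0.701-fold) and Pax6 (0.861-fold) were lower. Markers of other cells differed between the libraries. The 4 neuronal genes summed to 569 TPM in siChd4 against 440.1 TPM in siSCR. Most of that was Map2, at 516 TPM in siChd4 against 427 TPM in siSCR (1.21-fold). Tubb3 (40.0 TPM in siChd4 against 8.70 TPM in siSCR) and Dcx (10.9 TPM in siChd4 against 3.71 TPM in siSCR) differed by larger folds. The counting interval of Rbfox3 held 1. The 4 oligodendrocyte lineage genes summed to 41.6 TPM in siChd4 against 14.3 TPM in siSCR. The 4 astrocyte markers summed to 456 TPM in siChd4 against 346 TPM in siSCR, a difference of Aldh1l1 (421 TPM in siChd4 against 309 TPM in siSCR), while Aqp4 (0.870-fold) and S100b (0.812-fold) were lower and the median log2 ratio of the 4 was 0.03. Fibroblast, endothelial and microglial markers (9 genes) were near 0, with sums of 3.07, 2.09 and 0.53 TPM in siChd4 and of 1.2, 1.2 and 0.16 TPM in siSCR. The microglial gene Aif1 was at 0.31 TPM in siChd4 and listed at 0 in siSCR. The part of a changed cell mixture in the results below was not tested. In such bulk RNA, fewer cells of a type and less RNA per cell cannot be told apart. Each condition is a single library, so no test was possible and the spread between cultures is unknown. The intervals given are exact Clopper-Pearson 95% intervals and cover counting error only.

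Most chaperone genes were close to equal in the libraries, and the mitochondrial set was the compartment with the lowest median, -0.18. Of the 82 members, 74 had a mean of at least 1 TPM and were compared. Ratios are log2 of siChd4 over siSCR after 1 is added to each TPM, and their median was 0.02, beside -0.04 over the 12882 genes that passed the same limit. Of the 74, 52 had a TPM fold within 1.2 times in either direction (70.3%, beside 56.4% of all genes compared). The members stood at higher levels: 28 of the 74 had a mean of at least 100 TPM, against 2068 of the 12882. Of those 2068, 244 were at least 1.2-fold higher and 339 lower on the TPM plus 1 scale. Of the 28, 1 was higher and 3 were lower by that much. Only 2 of the 74 were at least 1.5-fold higher in siChd4, Hspa12b and Hspa1b, where 6.75% of all genes compared were that much higher. Another 2 were at least 1.5-fold lower, Hspa4l and Dnajb14, where 4.47% of all genes were. None of the 74 passed 2-fold on this scale, a limit that 2.26% of all genes passed upward and 0.629% downward. The counting interval of the fold lay above 1 for 21 members and below 1 for 25, and it held 1 for 28. Of all genes compared, 25.1% had an interval above 1 and 34.1% below 1, so that 62.2% of the members and 59.2% of all genes had an interval that left out 1, which is close to the background.

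**Figure D1:**
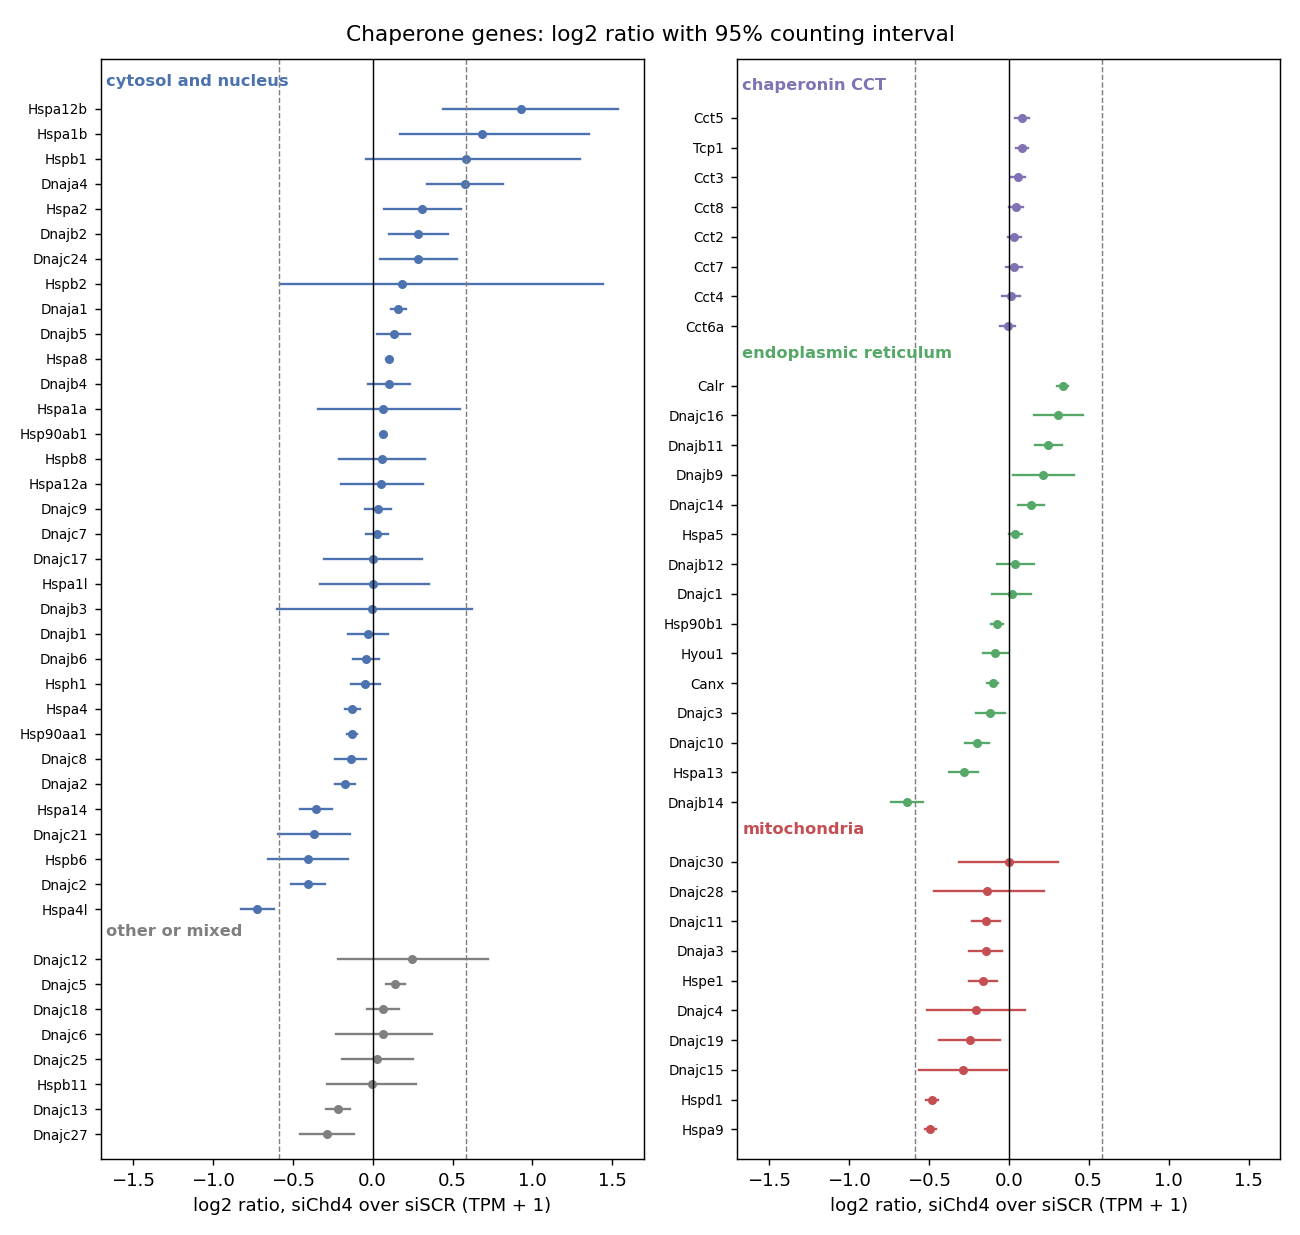
Log2 ratio of siChd4 over siSCR (x axis, TPM plus 1) of each of the 74 chaperone genes compared, sorted within compartments. Bars are 95% counting intervals and dashed lines mark 1.5-fold; 9 of 10 mitochondrial genes lie left of 0, while the 8 CCT subunits lie together between -0.01 and 0.09.

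The summed level of all 82 members was nearly the same, 16994 TPM in siChd4 against 17023.5 TPM in siSCR, or 1.699% of all transcripts in siChd4 and 1.702% in siSCR. Within that sum the compartments shifted. Mitochondrial chaperones summed to 1661 TPM in siChd4 against 2149 TPM in siSCR (0.773-fold, 0.761 to 0.785), and their share of all chaperone transcripts was 9.78% in siChd4 and 12.6% in siSCR. The summed levels of the 3 larger compartments were slightly higher: cytosol and nucleus with 7967 TPM in siChd4 against 7801 TPM in siSCR (1.02-fold), CCT with 3973 TPM in siChd4 against 3845 TPM in siSCR (1.03-fold), and the ER with 3103 TPM in siChd4 against 2945 TPM in siSCR (1.05-fold). The ER difference rested on Calr: without it the other 14 ER genes summed to 2128 TPM in siChd4 against 2173 TPM in siSCR (0.979-fold).

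**Figure D2:**
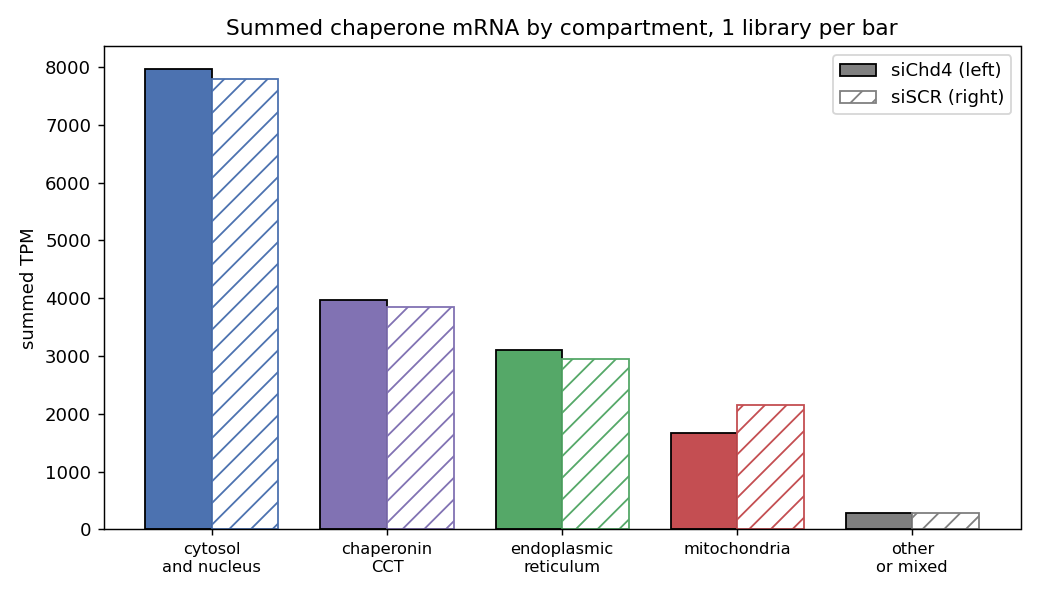
Summed TPM (y axis) of the chaperone genes of each compartment, with siChd4 as the left, filled bar and siSCR as the right, hatched bar of each pair. Each bar is 1 library, so there is no error bar; the mitochondrial pair, 1661 TPM in siChd4 against 2149 TPM in siSCR, differs most.

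The mitochondrial difference was carried by the 2 most abundant chaperones of the matrix. Hspa9 (mortalin), the mitochondrial HSP70 that pulls proteins in through the import channel, was at 448 TPM in siChd4 against 629 TPM in siSCR (0.712-fold, 0.695 to 0.730). Hspd1 (HSP60), the chaperonin chamber, was at 567 TPM in siChd4 against 792 TPM in siSCR (0.716-fold, 0.699 to 0.735). Their log2 ratios of -0.49 and -0.48 did not pass the 1.5-fold limit. Of the 2068 genes with a mean of at least 100 TPM, 3.68% had a ratio as low as that of Hspa9. Hspe1 (HSP10), the lid of the HSP60 chamber, was at 342 TPM in siChd4 against 381 TPM in siSCR, a smaller difference (0.896-fold, 0.843 to 0.952). The Hspd1 level per Hspe1 transcript was therefore 1.66 in siChd4 against 2.08 in siSCR. Hspd1 and Hspe1 overlap in the RefSeq annotation, and how reads from the overlap were counted is not stated.

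Hspd1 and Hspe1 stand head to head and share 1 promoter, which is shown because the ratios of the 2 genes it serves differed. The 215 bases between their starts in RefSeq (GRCm38.p6, chr1:55087933-55088147, read on the + strand, the strand of Hspe1) are printed with the heat shock elements in capitals. RefSeq lists 2 starts for Hspd1, and the one facing Hspe1 was taken.

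Hspe1 and Hspd1: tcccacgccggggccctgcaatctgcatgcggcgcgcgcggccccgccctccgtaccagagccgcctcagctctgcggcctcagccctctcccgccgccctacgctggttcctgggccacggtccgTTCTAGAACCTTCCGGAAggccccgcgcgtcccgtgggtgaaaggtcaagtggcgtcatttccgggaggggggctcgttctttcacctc

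The capitals run from 89 to 72 bases before the Hspe1 start and from 144 to 127 bases before this Hspd1 start. They hold GAA units in alternating directions, the pattern that heat shock factors are known to bind. The three-unit heat shock element, searched on both strands of the 300-base promoter windows in RefSeq, was found in 4 of the 67 members with such a window (Hspd1, Hspe1, Hsph1 and Dnajb6) and in 0.662% of all 27025 genes with one. Their log2 ratios lay between -0.48 and -0.04. A looser two-unit element, GAANNTTC or TTCNNGAA, which every three-unit element contains, was found in 19 of the 67 (28.4%, beside 17.0% of all genes). The 17 of these that were compared had a median log2 ratio of 0.04, and the 43 compared members without it one of 0.02.

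The J-domain proteins of mitochondria were lower by less. Their 7 genes summed to 304 TPM in siChd4 against 346 TPM in siSCR (0.879-fold, 0.844 to 0.916), and 6 of 7 had a ratio below 0, where 55.3% of all genes compared did. Dnajc19, of the import motor, was at 70.8 TPM in siChd4 against 84.0 TPM in siSCR, and Dnaja3, a partner of Hspa9, at 72 TPM in siChd4 against 79.7 TPM in siSCR. Dnajc11, of the inner membrane organizing system, was at 81.9 TPM in siChd4 against 90.5 TPM in siSCR, and Dnajc15, of the inner membrane, at 39.9 TPM in siChd4 against 48.8 TPM in siSCR. The intervals of these 4 lay below 1, while those of Dnajc4, Dnajc28 and Dnajc30 held 1. Dnajc30 was the only mitochondrial member with a ratio above 0, at 17.47 TPM in siChd4 against 17.44 TPM in siSCR. Other mitochondrial protein quality control genes, from a list of proteases, import factors and HSP70 cofactors, had a median log2 ratio of -0.15, with 15 of 18 below 0. Of these 18, 1 passed 1.5-fold, Hscb, a J-protein of iron-sulphur cluster assembly, at 11.4 TPM in siChd4 against 17.7 TPM in siSCR. Trap1, the mitochondrial HSP90, was at 106 TPM in siChd4 against 129.7 TPM in siSCR (0.820-fold, 0.772 to 0.871). The nucleotide exchange factor gene Grpel1 was at 41.9 TPM in siChd4 against 41.4 TPM in siSCR. The most abundant gene of that list, the import channel gene Tomm40, was at 171 TPM in siChd4 against 179 TPM in siSCR.

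The 8 subunits of the CCT ring stayed close together. They lay between 326 and 644 TPM in siChd4 and between 322 and 628 TPM in siSCR, so that the highest was 1.98 times the lowest in siChd4 and 1.95 times in siSCR. Their log2 ratios had an SD of 0.03 over the 8 subunits, which are not replicates. Cct2 was at 644 TPM in siChd4 against 628 TPM in siSCR, and Tcp1 at 577 TPM in siChd4 against 545 TPM in siSCR. Cct3 was at 575 TPM in siChd4 against 552 TPM in siSCR, and Cct5 at 545 TPM in siChd4 against 514 TPM in siSCR. Each of these and of the next subunits is present once in each of the 2 stacked rings of the chamber. Cct8 was at 486 TPM in siChd4 against 470.5 TPM in siSCR, and Cct6a at 475 TPM in siChd4 against 477 TPM in siSCR. Cct7 was at 345 TPM in siChd4 against 336 TPM in siSCR, and Cct4 at 326 TPM in siChd4 against 322 TPM in siSCR. The largest difference among the 8 was that of Cct5 (1.06-fold, 1.03 to 1.09), and 7 of 8 had a ratio above 0, where 44.5% of all genes did. The intervals of Tcp1, Cct3, Cct5 and Cct8 lay above 1, and those of the other subunits held 1. Of all genes, 25.1% had an interval above 1, and of the 2068 with a mean of at least 100 TPM, 695 had. The direction depended on scaling: with the trend in transcript length subtracted, Cct2, Cct4 and Cct6a were below 0, and with FPKM or TMM-scaled CPM all 8 were above 0. The related Cct6b and Cct8l1, which are known mainly from testis, had 4 and 1 counts in siChd4 and 7 and 4 in siSCR, too few to compare, and the transcript length of Cct6b also differed between the libraries.

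Genes that serve CCT did not differ as evenly. Of 16 genes for prefoldin, which hands actin and tubulin to CCT, and for tubulin cofactors and other CCT partners, 6 had a ratio above 0 and 10 below, with a median of -0.11 and none past 1.5-fold. The most abundant of them, the tubulin cofactor gene Tbca, was at 210.4 TPM in siChd4 against 221 TPM in siSCR. The summed CCT level was 5.26 times the summed level of the 6 prefoldin subunits in siChd4 and 5.19 times in siSCR.

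In the ER the members went both ways, with 8 of 15 above 0 and 7 below and a median log2 ratio of 0.02. Calr (calreticulin), a lectin of the ER lumen that holds new glycoproteins and calcium, was the highest, at 976 TPM in siChd4 against 772 TPM in siSCR (1.26-fold, 1.23 to 1.29). Its membrane-bound counterpart Canx (calnexin) was at 418 TPM in siChd4 against 449 TPM in siSCR (0.932-fold, 0.911 to 0.954). The Calr level per Canx transcript was 2.33 in siChd4 against 1.72 in siSCR. Hspa5 (BiP), the HSP70 of the lumen and a standard readout of ER stress, was at 537 TPM in siChd4 against 521 TPM in siSCR (1.03-fold, 1.002 to 1.06). Hsp90b1 (GRP94), the HSP90 of the lumen, was at 539.9 TPM in siChd4 against 568 TPM in siSCR, and Hyou1 (GRP170), an HSP110 relative that recharges BiP, at 74.5 TPM in siChd4 against 78.9 TPM in siSCR. Hspa13, a shortened HSP70 of microsomes, was at 53.2 TPM in siChd4 against 64.9 TPM in siSCR (0.820-fold, 0.768 to 0.874).

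Another stress element was found, among the members, only in some of those of the ER. The ER stress response element, CCAAT and CCACG 9 bases apart, is bound by NF-Y and ATF6, and its first 5 letters are also the plain CCAAT box. Searched on both strands, it was in the windows of 5 of 13 ER members with one, in those of no other member, and in 0.137% of all 27025 genes with a window. As for the heat shock elements, only exact matches were counted, so elements that depart from these letters would not be found. The elements are shown side by side because the 5 genes that carry them did not differ together. Capitals mark the fixed letters, each is read in the CCAAT direction, and for Calr and the second element of Hsp90b1 that is the strand opposite to the gene.

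Hspa5: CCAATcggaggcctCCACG
Canx: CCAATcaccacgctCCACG
Calr: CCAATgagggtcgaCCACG
Hsp90b1, first: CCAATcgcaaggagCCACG
Hsp90b1, second: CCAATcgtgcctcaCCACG
Dnajc3: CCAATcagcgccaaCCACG

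The element lies 65 to 47 bases before the start of Hspa5, 145 to 127 before that of Canx, 162 to 144 before that of Calr and 105 to 87 before that of Dnajc3. In Hsp90b1 the elements lie 212 to 194 and 107 to 89 bases before the start. The log2 ratios of the 5 genes ranged from -0.12 (Dnajc3) to 0.34 (Calr), with a median of -0.07. The promoters of the highest of them, Calr, and of Hspa5, which was nearly equal in the libraries, are printed for comparison, 250 bases up to the start with the element in capitals. They are from RefSeq, GRCm38.p6, at chr8:84846932-84847181 on the - strand for Calr and at chr2:34771840-34772089 on the + strand for Hspa5.

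Calr: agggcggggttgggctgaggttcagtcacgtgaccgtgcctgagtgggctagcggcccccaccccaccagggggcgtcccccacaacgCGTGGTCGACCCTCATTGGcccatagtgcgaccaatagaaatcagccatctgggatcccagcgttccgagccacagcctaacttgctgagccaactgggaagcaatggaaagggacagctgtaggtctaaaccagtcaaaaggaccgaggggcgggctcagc
Hspa5: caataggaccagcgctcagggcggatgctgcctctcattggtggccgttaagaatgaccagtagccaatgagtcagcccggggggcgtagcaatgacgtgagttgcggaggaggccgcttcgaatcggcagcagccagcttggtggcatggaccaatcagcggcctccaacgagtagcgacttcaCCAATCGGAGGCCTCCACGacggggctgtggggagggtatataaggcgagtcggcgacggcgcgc

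The J-domain proteins of the ER lumen differed in the same mixed way. Dnajb11 (ERdj3), which delivers clients to BiP, was at 149 TPM in siChd4 against 125 TPM in siSCR (1.19-fold, 1.12 to 1.26), and Dnajb9 (ERdj4) at 31.0 TPM in siChd4 against 26.6 TPM in siSCR (1.17-fold, 1.02 to 1.34). Dnajc3 (p58IPK) was at 44.25 TPM in siChd4 against 48.0 TPM in siSCR (0.921-fold, 0.864 to 0.982). Dnajc10 (ERdj5), a disulphide reductase, was at 84.5 TPM in siChd4 against 97.0 TPM in siSCR (0.871-fold, 0.828 to 0.917).

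Among the J-proteins anchored in the ER membrane, Dnajb14 was the one past 1.5-fold, though only just. It was at 18.6 TPM in siChd4 against 29.4 TPM in siSCR (0.631-fold, 0.586 to 0.679, log2 ratio -0.64). Dnajb14 and its close paralog Dnajb12 are known to help dispose of misfolded membrane proteins. Dnajb12 was at 62.05 TPM in siChd4 against 60.3 TPM in siSCR, so its level per Dnajb14 transcript was 3.34 in siChd4 against 2.05 in siSCR. The transcript of Dnajb14 was the longest of all members compared, 7.67 kb as estimated from counts and FPKM, and longer transcripts had lower ratios: the 3218 longest of all genes compared had a median log2 ratio of -0.15 and the 3218 shortest one of 0.02. With that trend subtracted its log2 ratio was -0.49, no longer past 1.5-fold. Dnajc16 (ERdj8) was at 22.7 TPM in siChd4 against 18.1 TPM in siSCR (1.25-fold, 1.12 to 1.40), and Dnajc14 at 67.9 TPM in siChd4 against 61.5 TPM in siSCR. Dnajc1 was at 24.6 TPM in siChd4 against 24.25 TPM in siSCR.

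Other folding enzymes and stress sensors of the ER, a list of 33 genes compared, had 17 above 0 and 16 below and a median of 0.02. The counting interval lay above 1 for 13 of the 33, below 1 for 8, and held 1 for 12. Of all genes compared, 25.1% had an interval above 1 and 34.1% below 1. These shares vary with level: of the 2068 genes with a mean of at least 100 TPM, 695 lay above 1 and 872 below. The most abundant of the 33, the prolyl isomerase gene Ppib, was at 587 TPM in siChd4 against 503 TPM in siSCR. The 1 gene past 1.5-fold was Edem2, of glycoprotein disposal, at 20.4 TPM in siChd4 against 32.1 TPM in siSCR (0.637-fold, 0.551 to 0.733). Of the sensors and factors of the unfolded protein response, Xbp1 had the largest ratio, at 41.5 TPM in siChd4 against 30.7 TPM in siSCR (1.35-fold, 1.21 to 1.51), and Ddit3 was at 17.9 TPM in siChd4 against 16.8 TPM in siSCR.

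In the cytosol, 2 constitutive chaperones were by far the most abundant members and were close to equal. Hspa8 (HSC70), the standing HSP70, was at 2929.56 TPM in siChd4 against 2729.55 TPM in siSCR (1.07-fold, 1.06 to 1.09). Hsp90ab1, the standing HSP90, was at 2381 TPM in siChd4 against 2274 TPM in siSCR (1.05-fold, 1.03 to 1.06). Together they held 31.2% of all chaperone TPM in siChd4 and 29.4% in siSCR. The stress-inducible HSP90 gene Hsp90aa1 was at 712 TPM in siChd4 against 778 TPM in siSCR (0.916-fold, 0.896 to 0.936), which put the Hsp90ab1 level at 3.34 times that of Hsp90aa1 in siChd4 and 2.92 times in siSCR. Hspa8 and both HSP90 genes have processed pseudogenes, and how reads shared with them were counted is not stated.

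**Figure D3:**
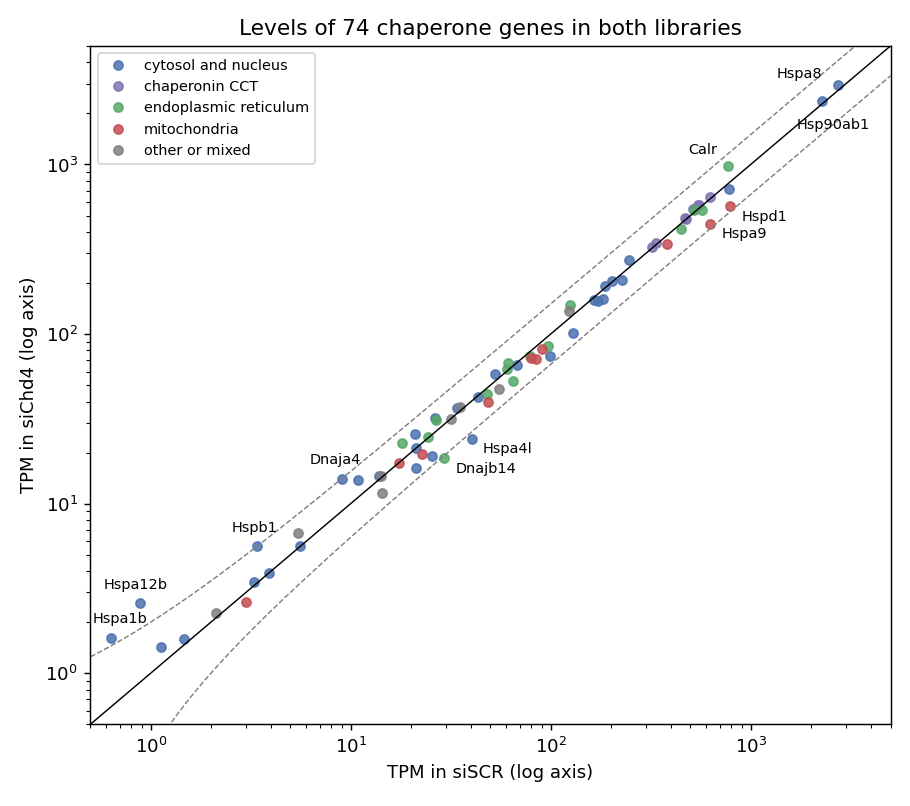
TPM in siChd4 (y axis, log scale) against TPM in siSCR (x axis, log scale) for the 74 chaperone genes compared, coloured by compartment, with the line of equality and dashed lines at 1.5-fold on TPM plus 1. The abundant genes lie on or near the line, Hspa9 and Hspd1 below it, and the genes past the dashed lines are below 50 TPM.

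The stress-inducible HSP70 genes were almost silent. Hspa1b was at 1.62 TPM in siChd4 against 0.63 TPM in siSCR, from 37.2 estimated counts in siChd4 and 13.7 in siSCR (2.57-fold, 1.32 to 5.02). Its log2 ratio of 0.68 was the smallest of the members past the upper 1.5-fold limit. With FPKM (0.67 in siChd4 and 0.25 in siSCR, 1 added to each) its log2 ratio was 0.42, which did not pass the limit. Hspa1a was at 1.59 TPM in siChd4 against 1.47 TPM in siSCR, from 36.4 counts in siChd4 and 31.9 in siSCR, and its interval held 1. These neighbouring genes encode nearly the same protein: their coding sequences in GENCODE M21 were 99.4% identical, so how reads were divided between them is uncertain. Their counts together were 73.55 in siChd4 against 45.6 in siSCR, a ratio of 1.61 (1.099 to 2.38). Unlike the other folds, this one is of unscaled counts. Their TPM together were 3.21 in siChd4 against 2.1 in siSCR, a smaller ratio. Their promoters are as alike, and are shown to make that likeness visible. The 250 bases before each start, from RefSeq (GRCm38.p6, - strand, chr17:34959239-34959488 for Hspa1b and chr17:34972157-34972406 for Hspa1a), differ at 3 bases, printed in capitals.

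Hspa1b: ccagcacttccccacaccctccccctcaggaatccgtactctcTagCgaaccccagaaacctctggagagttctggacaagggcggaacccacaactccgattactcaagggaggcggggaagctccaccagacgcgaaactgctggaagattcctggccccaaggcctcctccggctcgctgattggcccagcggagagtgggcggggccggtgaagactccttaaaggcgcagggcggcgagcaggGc
Hspa1a: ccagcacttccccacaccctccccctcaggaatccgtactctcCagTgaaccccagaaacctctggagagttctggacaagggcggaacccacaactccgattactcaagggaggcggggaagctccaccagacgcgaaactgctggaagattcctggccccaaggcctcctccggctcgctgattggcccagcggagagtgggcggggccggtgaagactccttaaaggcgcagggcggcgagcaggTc

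The level of Hspa1a and Hspa1b together was 0.0011 of that of Hspa8 in siChd4 against 0.00077 in siSCR. Both figures rest on few counts. The third gene of the cluster, Hspa1l, known mainly from testis, was at 5.61 TPM in siChd4 against 5.59 TPM in siSCR. Of 7 listed heat shock factor genes and partners, 3 had enough transcript to be compared. Hsf1, the main regulator of the heat shock response, was at 35.7 TPM in siChd4 against 30.8 TPM in siSCR (1.16-fold, 1.03 to 1.31), and Hsf2 at 47.2 TPM in siChd4 against 45.7 TPM in siSCR. Hsbp1, whose protein binds heat shock factors, was the most abundant of that list, at 244 TPM in siChd4 against 265 TPM in siSCR. None of the 3 passed 1.5-fold. Below the limit on level, Hsf4 had 10 counts in siChd4 and 1 in siSCR (8.88-fold, 1.26 to 385), and Hsf3, Hsf5 and Hsf2bp had at most 12 counts in either library.

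The other HSP70 relatives of the cytosol differed to unequal extents. Hspa12b, a distant HSP70 known mainly from endothelial cells, had the highest ratio of all members, at 2.58 TPM in siChd4 against 0.88 TPM in siSCR, from 63.0 counts in siChd4 and 21.0 in siSCR (2.93-fold, 1.76 to 5.05, log2 ratio 0.93). The endothelial markers Kdr, Pecam1 and Cdh5 summed to 2.09 TPM in siChd4 against 1.2 TPM in siSCR, from 3 genes that differed among themselves. Pecam1 was at 0.85 TPM in siChd4 against 0.31 TPM in siSCR (2.74-fold, 1.18 to 7.08), Kdr at 1.21 TPM in siChd4 against 0.86 TPM in siSCR with an interval that held 1, and Cdh5 at 0.03 TPM in both. The part of such cells in the Hspa12b value was not tested. Its relative Hspa12a was at 3.43 TPM in siChd4 against 3.27 TPM in siSCR. Hspa2, known for its part in spermatogenesis, was at 13.8 TPM in siChd4 against 10.9 TPM in siSCR (1.26-fold, 1.06 to 1.51).

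Of the HSP110 exchange factors, Hspa4l had the lowest ratio of all members, at 24.1 TPM in siChd4 against 40.45 TPM in siSCR (0.597-fold, 0.555 to 0.642, log2 ratio -0.72). It stayed past 1.5-fold under every other way of processing tried except a 2-fold limit, with log2 ratios from -0.74 to -0.63. Its paralogs differed less. Hspa4 was at 208 TPM in siChd4 against 227 TPM in siSCR (0.916-fold, 0.888 to 0.945), and Hsph1 at 65.5 TPM in siChd4 against 67.6 TPM in siSCR, with an interval that held 1. The Hspa4 level per Hspa4l transcript was 8.61 in siChd4 against 5.61 in siSCR.

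The next 3 members were picked out after their values were seen, so their shared direction is no result about a group. Hspa14 and Dnajc2 form the ribosome-associated complex, which meets nascent chains as they leave the ribosome. Hspa14 was at 101 TPM in siChd4 against 129.8 TPM in siSCR (0.781-fold, 0.729 to 0.837), and Dnajc2 at 74.5 TPM in siChd4 against 99.0 TPM in siSCR (0.753-fold, 0.698 to 0.811). Dnajc21, which takes part in the maturation of the large ribosomal subunit, was at 16.2 TPM in siChd4 against 21.2 TPM in siSCR (0.764-fold, 0.649 to 0.901). None of the 3 passed 1.5-fold. Their log2 ratios were -0.35, -0.41 and -0.37, and lay between -0.45 and -0.29 under the 5 other scalings tried.

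The other J-domain proteins of the cytosol and nucleus spread on both sides of 0. Dnaja1, the most abundant J-protein, was at 274 TPM in siChd4 against 245 TPM in siSCR (1.12-fold, 1.08 to 1.16), while the related Dnaja2 was at 161 TPM in siChd4 against 182 TPM in siSCR (0.887-fold, 0.849 to 0.927). The level of Dnaja1 was 1.698 times that of Dnaja2 in siChd4 and 1.35 times in siSCR. Dnaja4 was at 13.99 TPM in siChd4 against 9.06 TPM in siSCR (TPM fold 1.54, 1.296 to 1.84). After 1 was added to each TPM its log2 ratio was 0.575, just short of the 1.5-fold limit at 0.585.

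Dnajb1, the classical partner of HSP70 in the heat shock response, was at 42.6 TPM in siChd4 against 43.5 TPM in siSCR, and Dnajb6, known for holding back polyglutamine aggregation, at 159.61 TPM in siChd4 against 164 TPM in siSCR. The intervals of both held 1. Dnajb2, a J-protein enriched in neurons, was at 25.9 TPM in siChd4 against 21.1 TPM in siSCR (1.23-fold, 1.08 to 1.40). Dnajc7, Dnajc9 and Dnajc17 had intervals that held 1, with log2 ratios between 0.005 and 0.03. The splicing-associated Dnajc8 was at 157 TPM in siChd4 against 173 TPM in siSCR. Dnajc24, of diphthamide synthesis, was at 32.2 TPM in siChd4 against 26.3 TPM in siSCR. As a whole the 39 DNAJ genes compared had 21 above 0 and 18 below, with a median of 0.005 and only Dnajb14 past 1.5-fold.

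Of the small heat shock proteins of the cytosol among the members, those compared lay below 30 TPM. Hspb1 (HSP25), which is induced by stress and binds actin filaments, was at 5.61 TPM in siChd4 against 3.41 TPM in siSCR, from 39.9 counts in siChd4 and 23.0 in siSCR. Its log2 ratio of 0.58 lay just below the 1.5-fold limit, and its interval (0.964 to 2.89) held 1. Hspb6 was at 19.1 TPM in siChd4 against 25.6 TPM in siSCR (0.746-fold, 0.622 to 0.894). Hspb8, which works with Bag3 in selective autophagy, was at 14.55 TPM in siChd4 against 13.9 TPM in siSCR, while Bag3 was at 46.05 TPM in siChd4 against 33.8 TPM in siSCR (1.36-fold, 1.23 to 1.505). Hspb2 had 7 counts in each library (7 and 7.06), so its TPM fold of 1.26 came from a transcript length that differed between the libraries. It also overlaps Cryab, itself a small heat shock protein gene, which was at 164 TPM in siChd4 against 177 TPM in siSCR.

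Co-chaperones of HSP70 and HSP90 stayed near 0 as a list, with 13 of 27 above and 14 below, a median of -0.01 and none past 1.5-fold. The most abundant, Ptges3 (p23), which stabilises closed HSP90, was at 284 TPM in siChd4 against 339 TPM in siSCR (0.836-fold, 0.803 to 0.870). Bag3 had the highest ratio of that list.

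In other places, Dnajc5 (cysteine string protein), which guards synaptic vesicle proteins, was at 137 TPM in siChd4 against 124 TPM in siSCR (1.104-fold, 1.06 to 1.15). The neuronal markers above were higher in siChd4 as well, and their part in this value was not tested. Dnajc13, of endosomes, was at 47.45 TPM in siChd4 against 55.2 TPM in siSCR (0.859-fold, 0.815 to 0.906). The lowest ratio there was that of Dnajc27, at 11.6 TPM in siChd4 against 14.3 TPM in siSCR, and the highest that of Dnajc12, at 6.69 TPM in siChd4 against 5.47 TPM in siSCR, with an interval that held 1. Dnajc6 (auxilin), which uncoats clathrin vesicles, was at 2.27 TPM in siChd4 against 2.13 TPM in siSCR. Hspb11, a part of the ciliary transport machinery in spite of its name, was at 31.7 TPM in siChd4 against 31.85 TPM in siSCR.

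The 8 members below a mean of 1 TPM were Hspb3, Hspb7, Hspb9, Dnajb7, Dnajb13, Dnajc22, Cct6b and Cct8l1. They had between 0 and 4 counts in siChd4 and between 2 and 7 in siSCR. Dnajb7 had 0 counts in siChd4, which allows up to 3, and 4 in siSCR. No difference in these genes was detectable at this depth.

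The order of the compartments was compared across ways of processing, because a median near 0 can change sign with the scaling alone. The mitochondrial median was -0.18 and lay between -0.22 and -0.12 under the 7 others tried. It was below the median of all genes compared each time. The medians of CCT, the ER and the other places stayed above 0 and that of the cytosol and nucleus was -0.02 with the length trend subtracted.

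**Figure D4:**
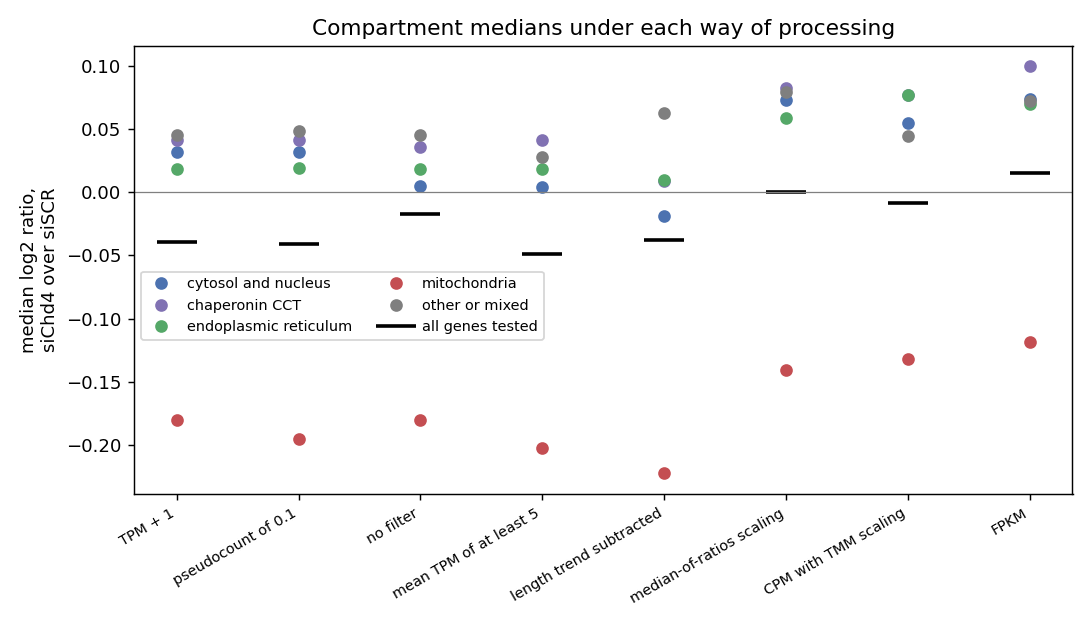
Median log2 ratio of siChd4 over siSCR (y axis) of the chaperone genes of each compartment (coloured points) and of all genes compared (black bars) under 8 ways of processing (x axis). The mitochondrial points lie between -0.22 and -0.12, under the black bar in each, while the other compartments lie between -0.02 and 0.10.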

How the data were processed

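The data are RNA-seq of total RNA from 1 siChd4 and 1 siSCR library. The authors deposited 1 table with FPKM, TPM and read counts per gene, per the file headers. The counts deposited by the authors are estimated counts: 17.8% of values in siChd4 and 16.0% in siSCR are whole. The submitters' processing notes name mm39. The aligner, the counter and whether strand was used are not stated there.

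Members were found by symbol. Compartments and lists were written by hand, and all were chosen with earlier results of these data known. The 12882 genes whose TPM averaged 1 or more were compared by log2 of TPM plus 1, which understates differences of low genes. Folds are of TPM, with intervals from counts rounded to whole numbers. Depth gives a floor of 3 counts, 0.149 CPM in siChd4 and 0.151 in siSCR. The named genes were Chd4; members past 1.5-fold or just outside it; the 2 most abundant members and the extreme ratios of each compartment; CCT, HSP70, HSP110 and HSP90 genes; members whose transcript length differed by over 1.2 times between libraries; and, per list, the most abundant gene and those past 1.5-fold. Other genes were named after their values were seen. Transcript length was counts over FPKM and library size.

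Alternatives were a pseudocount of 0.1, median-of-ratios scaling, FPKM, CPM with TMM scaling (edgeR 4.0.16), subtraction of the length trend (lowess, span 0.3, statsmodels 0.14.6), other filters and a 2-fold limit. Intervals and calls were tried on simulated data that held counting error only, so that check says nothing on the spread between cultures. All 82 members were matched to RefSeq genes by Entrez number and 67 to a promoter window (250 bases before to 50 after a start, GRCm38.p6). That assembly differs from mm39 and was used for sequences and neighbours only.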

Additional observations from a re-analysis of the deposited data

How the results depend on the processing

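Members at least 1.5-fold higher numbered 2 with TPM plus 1. They were 4 with a pseudocount of 0.1 or median-of-ratios scaling, which added Dnaja4 and Hspb1, 3 with TMM-scaled CPM, 1 with FPKM, which left out Hspa1b, and 0 where TPM averaged 5 or more or with a 2-fold limit. A higher minimum leaves out Hspa12b and Hspa1b by construction. The count over all genes compared, 870 with TPM plus 1, moved too: 1088 with a pseudocount of 0.1, 942 with median-of-ratios scaling, 903 with TMM-scaled CPM and 721 with FPKM. Members at least 1.5-fold lower numbered 2, 1 (Hspa4l) with FPKM, TMM-scaled CPM or the length trend subtracted, and 0 at 2-fold. Over all genes, 576 were that much lower with TPM plus 1, 295 with FPKM, 493 with TMM-scaled CPM and 492 with the length trend subtracted. The log2 ratio of Chd4 was -0.29, and -0.25 with median-of-ratios scaling, -0.23 with FPKM and -0.18 after subtraction of the length trend. The CCT median was 0.04, and 0.10 with FPKM. The log2 ratio of summed levels with FPKM was 0.089 for the cytosol and nucleus, 0.11 for CCT, 0.13 for the ER, -0.31 for mitochondria, 0.087 for other places and 0.056 for all members. With TMM-scaled CPM it was 0.056 for the cytosol and nucleus, 0.083 for CCT, 0.056 for the ER and -0.38 for mitochondria. It was -0.0062 for other places and 0.017 for all members. TPM gave 0.030, 0.047, 0.075, -0.37, 0.029 and -0.0025 in the same order, so other places and all members changed sign. FPKM and CPM put a different scale between the libraries, and the median of all genes was -0.04 with TPM, 0.02 with FPKM and -0.01 with TMM-scaled CPM. FPKM differs from TPM by a single factor per library, so all of these summed log2 ratios moved by the same amount with FPKM. For TMM-scaled CPM, which is not corrected for transcript length, how much the scale accounts for was not tested. The counts past 1.5-fold with FPKM also depend on the added 1. FPKM values were lower than TPM values (Hspa1b: 0.67 FPKM in siChd4 and 0.25 in siSCR, against 1.62 and 0.63 TPM). Adding 1 therefore understates FPKM ratios more, and its share in the lower counts was not tested. Of 370 values of single members under 5 other settings, 324 stayed within counting error, and 59 of 74 members kept 1 sign throughout. Leaving out a replicate was not run, since a group was a single library. Depth limits members below about 10 TPM, of which 9 of 11 had an interval that held 1, as had 1821 of all 3245 genes of that range. No paired analysis was possible because there is 1 siChd4 and 1 siSCR library.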

Other observations

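Some members share their place in the genome with genes that differed far more. In the RefSeq annotation 20 of the 82 members overlap another gene of the table. Dnajc7, at 207 TPM in siChd4 against 203 TPM in siSCR, overlaps Cnp, a gene of myelinating cells, at 186 TPM in siChd4 against 93.5 TPM in siSCR, and Nkiras2, an inhibitor of NF-kappa-B signalling, at 23.7 TPM in siChd4 against 51.3 TPM in siSCR. Dnajb4, at 36.75 TPM in siChd4 against 34.2 TPM in siSCR, overlaps Fubp1, at 141 TPM in siChd4 against 204 TPM in siSCR. Dnajb3 lies within the Ugt1a cluster, of which Ugt1a6b was at 7.77 TPM in siChd4 against 2.24 TPM in siSCR. Hspd1 and Hspe1 overlap each other. Whether counting used strand is not stated, so the values of overlapping genes are uncertain.

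By level, the members between 1 and 10 TPM stood higher than the rest, with 9 of 11 above 0 and a median log2 ratio of 0.07. All 3245 genes of that range had a median of 0.03, with 1709 above 0 and 1525 below. Of the 11 members, 9 had an interval that held 1. The 35 members between 10 and 100 TPM had a median of -0.03 (all 7569 genes -0.06), and the 28 at or above 100 TPM one of 0.03 (all 2068 genes -0.03). No test was made of these differences.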
